A study of Mus musculus with 12 samples.

Results

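The genes described here are the lecticans *Vcan*, *Acan*, *Bcan* and *Ncan* together with their matrix partners *Hapln1*, *Tnc*, *Tnr*, *Ptprz1*, *Chst3* and *Chst11*, 10 of the 24480 gene symbols in each count table. They were taken by symbol. They were chosen by their place in one matrix and from differences between mutants and controls that these same libraries had already shown, so the fold changes and calls below describe the members and do not test the choice. All 10 were found in both tables. After the filter on low counts all 10 were tested for *Sox2* and 9 for *Nr2f1*, where *Hapln1* was left out.

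The samples were dorsolateral geniculate nuclei (dLGN), the thalamic relay for vision, dissected from mice at postnatal day 0 and sequenced as 12 libraries in 4 groups of 3, each a pool of 3 animals of 1 genotype. *Sox2* mutants were Sox2flox/flox with Ror-alphaCre and *Nr2f1* mutants were Nr2f1 flox/flox with Ror-alphaCre. Controls were littermates without Cre, Sox2flox/flox or Sox2flox/+ in one line, and in the other line, per the study's methods, *Nr2f1* flox/flox or flox/+. The label of the *Nr2f1* controls names the Cre allele and also says that Cre is absent. Cre was inserted into the 3′ untranslated region of *Rora*, a gene of differentiating sensory thalamic neurons, while the dissected tissue also held glia, microglia and vessels. Mutants carried this insertion and controls did not, so the allele and the deletion cannot be told apart in these comparisons. Mutants were set against the controls of their line.

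Total counts were between 39293465 and 50095344 per library. *Sox2* fell to 37.8% of control in its own mutants (log2 fold change -1.40, FDR 4.83e-05) and *Nr2f1* to 33.6% in its own (-1.57, FDR 0.000348), and no mutant library reached the level of a control. *Sox2* was also lower in *Nr2f1* mutants (-0.55, FDR 0.00635). The markers of thalamic glutamatergic neurons *Slc17a6* and *Tcf7l2* were at 231 ± 36.5 and 763 ± 115 CPM (counts scaled to library size after TMM normalization) in *Sox2* controls. Libraries of a group were kept as separate replicates in the tests. All pairs within a group differed by more than sampling noise (chi-square per degree of freedom 10.8 to 39.6). Nothing ties the columns to separate litters, and p-values measure the spread between pools.

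Lecticans are large secreted proteoglycans. One end binds hyaluronan, a sugar chain made at the cell surface by hyaluronan synthases, link proteins of the *Hapln* family clamp that bond, and the other end binds tenascins, so that the parts form a mesh between cells. Chondroitin sulfate chains hang from the middle of the lectican core, and sulfotransferases set where on the chain the sulfate sits. In the newborn brain this mesh is loose and rich in neurocan and versican, made largely by glia, their precursors and by neurons, whereas aggrecan and link protein 1 later condense around some neurons as perineuronal nets.

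The start regions of 3 members are shown, *Chst3* and *Tnr* for a match to a SOX motif and *Vcan* as the 1 member whose change differed between the lines. SOX proteins bind ACAAAG and ACAATG, and NR2F1 binds repeats of AGGTCA, a half-site shared with many nuclear receptors. Each was searched on both strands in the windows of 300 bases that RefSeq gives for GRCm38.p6, 250 before a start site and 50 after it. A start site need not be the outer end of the gene. The windows of *Vcan* and *Chst3* lie inside the gene positions given below. The GC box GGGCGG, bound by factors of the SP family, was searched for comparison. All 10 members had a window, *Tnc* with more than 1. ACAAAG was found in the windows of *Tnr* and *Chst3*, against 18.7% of all 32851 windows. No member held ACAATG, found in 12.6% of all windows, or AGGTCA, found in 16.3%. GGGCGG was in the windows of 8 members, all but *Hapln1* and *Tnr*, against 35.7% of all windows. The 4 motifs do not overlap in the windows printed here, a match is only a match of letters, and no match says only that these letters are not in this window. Windows are written 5′ to 3′ on the gene's strand, with matches in capitals, the GC boxes in *Vcan* and *Chst3* and the SOX hexamer, read on either strand, in *Chst3* and *Tnr*. The window of *Vcan* is chr13:89742463-89742762 (minus strand), that of *Chst3* chr10:60219211-60219510 (minus strand) and that of *Tnr* chr1:159523519-159523818 (plus strand).
Vcan: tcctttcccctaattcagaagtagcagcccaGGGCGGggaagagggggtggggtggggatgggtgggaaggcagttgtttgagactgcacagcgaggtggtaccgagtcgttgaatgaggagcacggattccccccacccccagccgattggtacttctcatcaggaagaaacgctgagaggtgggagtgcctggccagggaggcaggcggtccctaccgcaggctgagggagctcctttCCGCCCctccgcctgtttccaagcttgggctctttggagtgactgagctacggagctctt
Chst3: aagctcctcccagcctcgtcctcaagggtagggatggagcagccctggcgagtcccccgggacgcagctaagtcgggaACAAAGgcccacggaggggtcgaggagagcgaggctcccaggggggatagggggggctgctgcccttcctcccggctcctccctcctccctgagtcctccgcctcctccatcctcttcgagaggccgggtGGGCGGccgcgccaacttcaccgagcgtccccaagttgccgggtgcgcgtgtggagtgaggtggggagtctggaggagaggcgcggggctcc
Tnr: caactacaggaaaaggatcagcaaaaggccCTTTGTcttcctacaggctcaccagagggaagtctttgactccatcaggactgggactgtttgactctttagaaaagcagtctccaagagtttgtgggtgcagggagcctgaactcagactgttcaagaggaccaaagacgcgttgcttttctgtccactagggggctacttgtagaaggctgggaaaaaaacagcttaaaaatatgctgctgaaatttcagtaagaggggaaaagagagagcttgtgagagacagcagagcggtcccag
The base composition of the windows differed widely. G and C made up 74.0% of the *Acan* window and 48.0% of that of *Tnr*, with a median of 52.7% over all windows.

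Members lay on 8 chromosomes, and one pair were neighbours. *Hapln1* (chromosome 13, 89540529 to 89611832, plus strand) and *Vcan* (89655309 to 89743027, minus strand) are separated by 43.5 kb with 0 annotated genes between them, and their 3′ ends face each other. *Nr2f1* itself lies on the same chromosome, 11.3 Mb from *Hapln1*. *Chst3* (chromosome 10, 60181527 to 60222114) and *Chst11* (82984440 to 83195904) share a chromosome but are 22.8 Mb apart. *Ncan* contains the microRNA gene *Mir7066* and *Acan* overlaps *Gm26633*, both listed in the count tables. No source used here says whether strand was used in counting, so reads of *Acan* and *Gm26633* may not be separable.

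The levels of the members spanned several orders of magnitude, and their order was the same in both control groups. Levels between genes were set side by side as CPM per kb of the longest annotated coding transcript. In *Sox2* controls *Ncan*, neurocan, stood first at 323 ± 2.10 (SD, n = 3 here and below) and *Tnc*, tenascin-C, next at 118 ± 12.8. *Bcan*, brevican, was at 108 ± 9.10 and *Ptprz1*, a receptor phosphatase whose secreted form phosphacan is itself a chondroitin sulfate proteoglycan, at 69.0 ± 2.14. A second tier lay about an order of magnitude lower. It held *Chst11*, which sulfates the 4 position, at 7.97 ± 0.588, *Vcan*, versican, at 7.72 ± 0.203, and *Chst3*, which sulfates the 6 position, at 3.33 ± 0.217. *Tnr*, tenascin-R, followed at 0.592 ± 0.105. *Acan*, aggrecan, at 0.0839 ± 0.0209 and *Hapln1*, link protein 1, at 0.0457 ± 0.0200 were close to the limit of detection, with 16 to 56 and 6 to 35 counts per library over all 12 libraries. The ranges of the 3 libraries overlapped between *Tnc* and *Bcan* and between *Chst11* and *Vcan* in both control groups, and between *Acan* and *Hapln1* in *Sox2* controls. With the mean length of a gene's coding transcripts in place of the longest, *Bcan* moved above *Tnc* and *Vcan* above *Chst11*, to 23.4 CPM per kb. *Vcan* has 8 such transcripts, and gene counts do not tell its splice forms apart.

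In *Sox2* mutants 6 of the 10 members rose at FDR below 0.01 and 0 fell, and in *Nr2f1* mutants 0 of the 9 tested passed. Over all genes 3.9% were called higher in *Sox2* mutants and 1.22% in *Nr2f1* mutants. The called members were *Vcan*, *Bcan*, *Ncan*, *Tnc*, *Ptprz1* and *Chst3*. The median log2 fold change of the members was 0.62 in *Sox2* mutants, where that of all 15602 genes tested was 0.00, and 0.23 in *Nr2f1* mutants, where that of all 15600 was 0.01. All 3 mutant libraries lay above all 3 controls for 8 of 10 members in the comparison of *Sox2*, all but *Acan* and *Chst11*, and for 7 of 9 in that of *Nr2f1*, all but *Tnc* and *Tnr*. The same was true of 19% and of 14.4% of all genes tested. *Hapln1*, which is among the 8, passed the filter on low counts through the *Sox2* mutants. At an unadjusted p below 0.05 in edgeR, 6 of the 9 members were higher in *Nr2f1* mutants, against 13.5% of genes, and 1 was called by DESeq2 at FDR below 0.01. Since these contrasts entered the choice of members, nothing is read from these shares. Because this was bulk tissue, more cells of a type and more RNA per cell cannot be told apart.

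**Figure D1:**
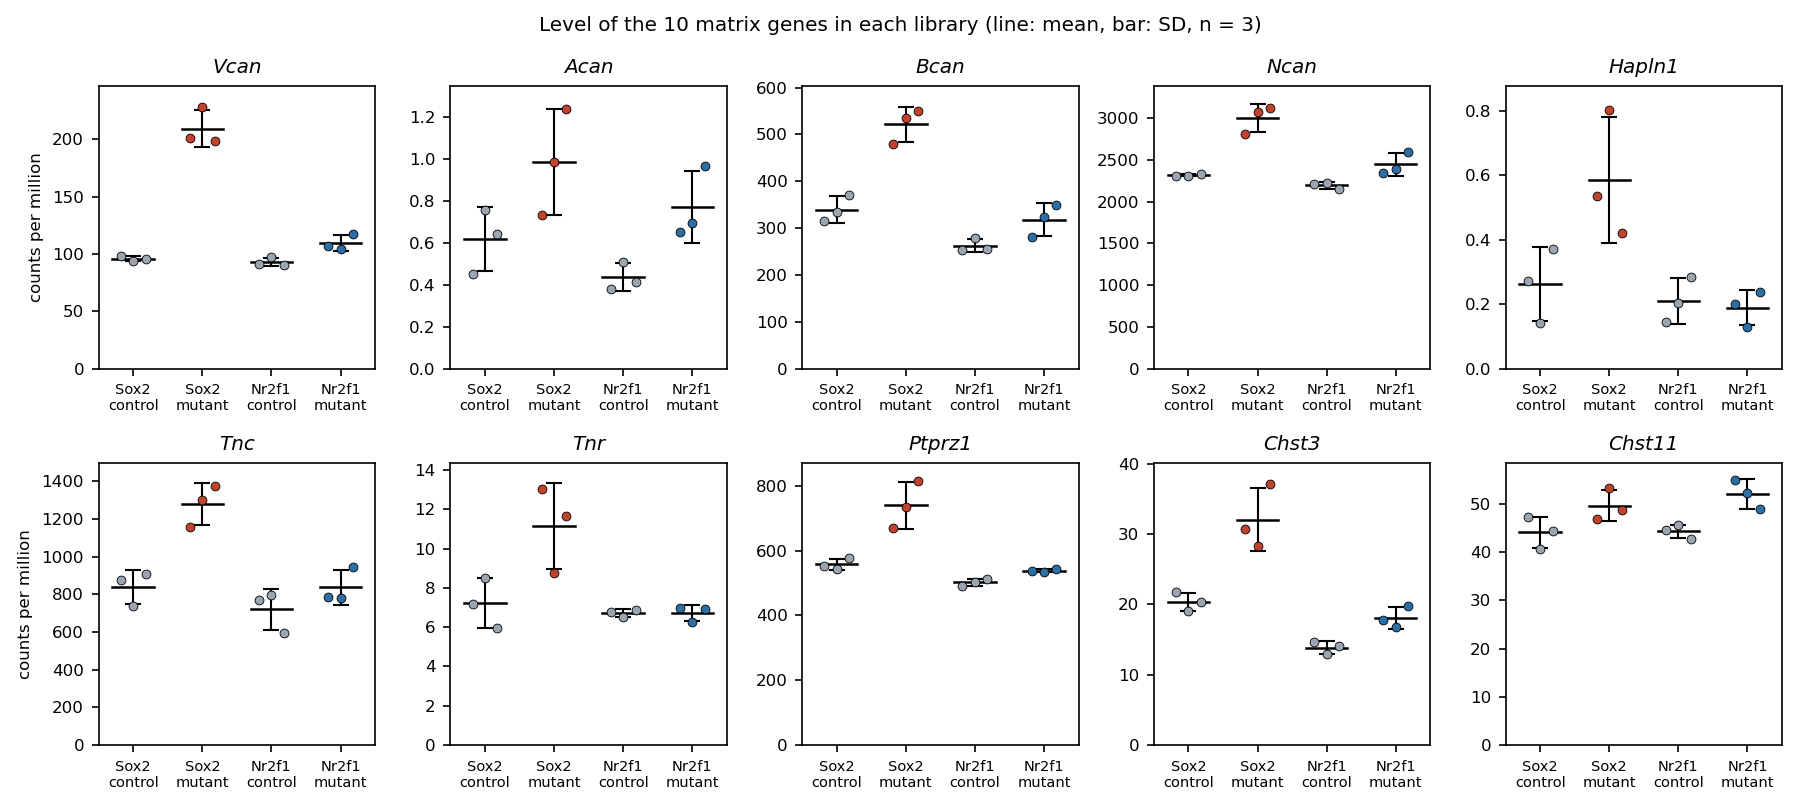
CPM, on linear axes from 0, of the 10 genes in each of the 12 libraries, grouped as control and mutant of the *Sox2* line and of the *Nr2f1* line; points are libraries, horizontal lines the mean and bars the SD (n = 3). The 3 *Sox2* mutant libraries stand at 199 to 228 CPM for *Vcan*, above every other library, while the *Nr2f1* mutants stand only slightly above their controls.

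*Vcan*, whose product is the most widespread lectican of embryonic tissue and turns many growing axons aside, changed most among the called members. *Vcan* stood at 98.6, 93.6 and 95.5 CPM in the *Sox2* controls and at 201, 228 and 199 CPM in the *Sox2* mutants. Control libraries were within a few CPM of each other and every mutant library was at more than double the highest of them. The mean rose 2.18-fold from 95.9 ± 2.52 to 209 ± 16.2 CPM, a log2 fold change of 1.13 (SE 0.07, FDR 2.64e-05). For *Nr2f1*, *Vcan* was at 91.5, 96.9 and 90.4 CPM in controls and at 107, 105 and 117 CPM in mutants. The groups did not overlap, but the step was small, 0.24 on the log2 scale (SE 0.06, FDR 0.0368). In both control groups *Vcan* was near the same level.

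*Bcan* and *Ncan* are the lecticans most restricted to the nervous system, brevican made by astrocytes and precursors of oligodendrocytes, neurocan by neurons and glia. *Bcan* was at 314, 334 and 371 CPM in *Sox2* controls and at 478, 534 and 551 CPM in *Sox2* mutants, and rose by 0.62 on the log2 scale (SE 0.09, FDR 0.00124). *Nr2f1* controls had 254, 278 and 255 CPM and *Nr2f1* mutants 281, 324 and 349 CPM, a log2 fold change of 0.28 (SE 0.08, FDR 0.0625). The lowest *Nr2f1* mutant was barely above the highest control. *Ncan*, with at least 93148 counts in every library, was at 2315, 2309.6 and 2338 CPM in *Sox2* controls and at 2811, 3078 and 3128 CPM in mutants. The step was the smallest of the called members, 0.37 on the log2 scale (SE 0.07, FDR 0.00581), although the controls spread by only 15.1 CPM (SD). *Nr2f1* controls had 2216, 2228 and 2153 CPM of *Ncan* and mutants 2346, 2398 and 2599 CPM, a log2 fold change of 0.15 (SE 0.05, FDR 0.116).

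*Acan* encodes aggrecan, the main lectican of cartilage and of mature perineuronal nets. *Acan* was at 0.452, 0.757 and 0.642 CPM in *Sox2* controls and at 0.731, 0.984 and 1.24 CPM in mutants, groups that overlapped (log2 fold change 0.68, SE 0.33, FDR 0.171). Controls of *Nr2f1* had 0.381, 0.509 and 0.413 CPM and mutants 0.653, 0.693 and 0.968 CPM (0.82, SE 0.31, FDR 0.143). The *Nr2f1* groups did not overlap, but the highest of these 12 values is 56 counts, and *Acan* passed in neither line.

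The link protein *Hapln1* was lower still. It was at 0.271, 0.142 and 0.370 CPM in *Sox2* controls and at 0.536, 0.801 and 0.420 CPM in mutants, or 6 to 15 counts against 19 to 35. The groups did not overlap, the log2 fold change was 1.16 with an SE of 0.44, and the FDR was 0.0900. Only 2 of the 3 controls had 10 or more counts, so that *Hapln1* passed the filter on low counts through the mutants, where it was higher. In the *Nr2f1* line it was at 0.143, 0.204 and 0.283 CPM in controls and at 0.201, 0.130 and 0.237 CPM in mutants, overlapping groups that were not tested. *Hapln1* and its neighbour *Vcan* had similar log2 fold changes in *Sox2* mutants, but the error on that of *Hapln1* is several times larger.

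Tenascins cross-link lecticans at their outer end. *Tnc*, typical of radial glia and immature astrocytes, was at 877, 736 and 908 CPM in *Sox2* controls and at 1159, 1303 and 1376 CPM in mutants, and rose by 0.61 on the log2 scale (SE 0.10, FDR 0.00288). The *Nr2f1* groups were closer, with *Tnc* at 769.9, 798 and 594 CPM in controls and at 786, 780.0 and 944 CPM in mutants (0.22, SE 0.11, FDR 0.277). One control was far below the other two there and the groups overlapped. *Tnr*, a product of oligodendrocyte lineage cells and some neurons, was at 7.19, 8.52 and 5.95 CPM in *Sox2* controls and at 13.0, 8.77 and 11.7 CPM in mutants. One mutant library was next to the highest control, and the log2 fold change of 0.63 (SE 0.18) had an FDR of 0.0346. The *Nr2f1* groups overlapped, with *Tnr* at 6.76, 6.50 and 6.89 CPM in controls and at 6.95, 6.26 and 6.95 CPM in mutants, a log2 fold change of 0.00 with an SE of 0.11. The ratio of *Tnc* to *Tnr*, in CPM per kb, was 207 ± 56.9 in *Sox2* controls and 204 ± 51.2 in mutants.

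*Ptprz1*, a receptor that chondroitin sulfate and pleiotrophin bind, was at 551, 544 and 577 CPM in *Sox2* controls and at 669.8, 734 and 814 CPM in mutants. It rose by 0.41 on the log2 scale (SE 0.08, FDR 0.00849), and was the called member nearest the threshold. *Nr2f1* controls were at 491, 504 and 512 CPM and mutants at 538, 533 and 542 CPM, narrow groups that did not overlap (0.10, SE 0.04, FDR 0.216). Of its partners, *Ptn*, pleiotrophin, had 968 ± 108 CPM in *Sox2* controls and 1087 ± 153 in mutants (FDR 0.333), and 822 ± 14.0 against 917 ± 10.8 in the *Nr2f1* line (FDR 0.0658). *Mdk*, midkine, had log2 fold changes of 0.58 (FDR 0.0383) and 0.37 (FDR 0.0331) in the *Sox2* and *Nr2f1* lines. *Cntn1*, contactin 1, the neuronal partner of *Ptprz1*, had -0.27 (FDR 0.101) and -0.16 (FDR 0.155). None of the 3 passed in either line.

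*Chst3* and *Chst11* place sulfate at different positions of the same chain. *Chst3* was at 21.7, 19.1 and 20.3 CPM in *Sox2* controls and at 30.7, 28.3 and 37.0 CPM in mutants, and rose by 0.65 on the log2 scale (SE 0.11, FDR 0.00369). Controls of *Nr2f1* were at 14.7, 12.9 and 14.0 CPM and mutants at 17.7, 16.7 and 19.7 CPM (0.38, SE 0.09, FDR 0.0394). The groups were apart in both lines, and control levels differed between the lines, whose tables were normalized separately. *Chst11* was at 47.2, 40.7 and 44.3 CPM in *Sox2* controls and at 47.0, 53.3 and 48.7 CPM in mutants, overlapping groups (0.17, SE 0.08, FDR 0.165). In the *Nr2f1* line *Chst11* was at 44.5, 45.6 and 42.8 CPM in controls and at 55.0, 52.2 and 48.9 CPM in mutants (0.23, SE 0.06, FDR 0.0579). Here the groups did not overlap, and *Chst11* was with *Acan* the member whose estimate was larger in *Nr2f1* than in *Sox2* mutants.

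The number of calls in the *Sox2* line varied with the libraries used. Leaving out 1 library at a time left 1 to 6 members called. The count was 6 without the control library CTRL_3 and 5 without the mutant library MUT_1. It was 2 without the control library CTRL_1 and 2 without CTRL_2, 3 without MUT_3 and 1 without MUT_4. *Vcan* was called in all 6 of these fits, *Bcan* in 5 (not without MUT_4), *Chst3* in 3, *Tnc* in 2, *Ptprz1* in 2 and *Ncan* in 1. All 10 log2 fold changes stayed above 0 in each. Nothing is read from these signs, since the fits share most of their libraries and the contrast entered the choice of members. *Hapln1* also passed the filter on low counts through the mutants.

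Whether the members responded differently in the 2 mutants was tested as the change in *Sox2* mutants minus the change in *Nr2f1* mutants, in one edgeR fit over the 12 libraries. This difference was 0.90 for *Vcan* (SE 0.09, FDR 9.85e-05), the 1 member that passed. Of all 15989 genes, 0.331% passed with a change more positive in *Sox2* mutants and 1.11% with a change more negative. *Vcan* passed without any 1 of the 12 libraries, with a difference between 0.84 and 0.95 over all alternatives. Nothing is read from the next share, since the contrasts that make up this difference entered the choice of members. At an unadjusted p below 0.05 the difference was above 0 for 6 of the 10, against 7.59% of genes. These were *Vcan*, *Bcan* (0.35, SE 0.12, FDR 0.169), *Ncan* (0.23, SE 0.08, FDR 0.179), *Tnc* (0.40, SE 0.17, FDR 0.252), *Tnr* (0.63, SE 0.21, FDR 0.133) and *Ptprz1* (0.32, SE 0.09, FDR 0.0859). *Chst3* differed by 0.28 with an SE of 0.15 (FDR 0.394) and *Hapln1* by 1.32 with an SE of 0.65 (FDR 0.342). The value for *Hapln1* rests on 6 to 35 counts per library. In the *Sox2* line *Hapln1* passed the filter on low counts through the mutants, so nothing is read from its difference. For *Chst11* (-0.05, SE 0.10) and *Acan* (-0.14, SE 0.44) the estimate was below 0. Apart from *Vcan*, a call in one line and none in the other is therefore not shown to be a difference between the lines.

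**Figure D2:**
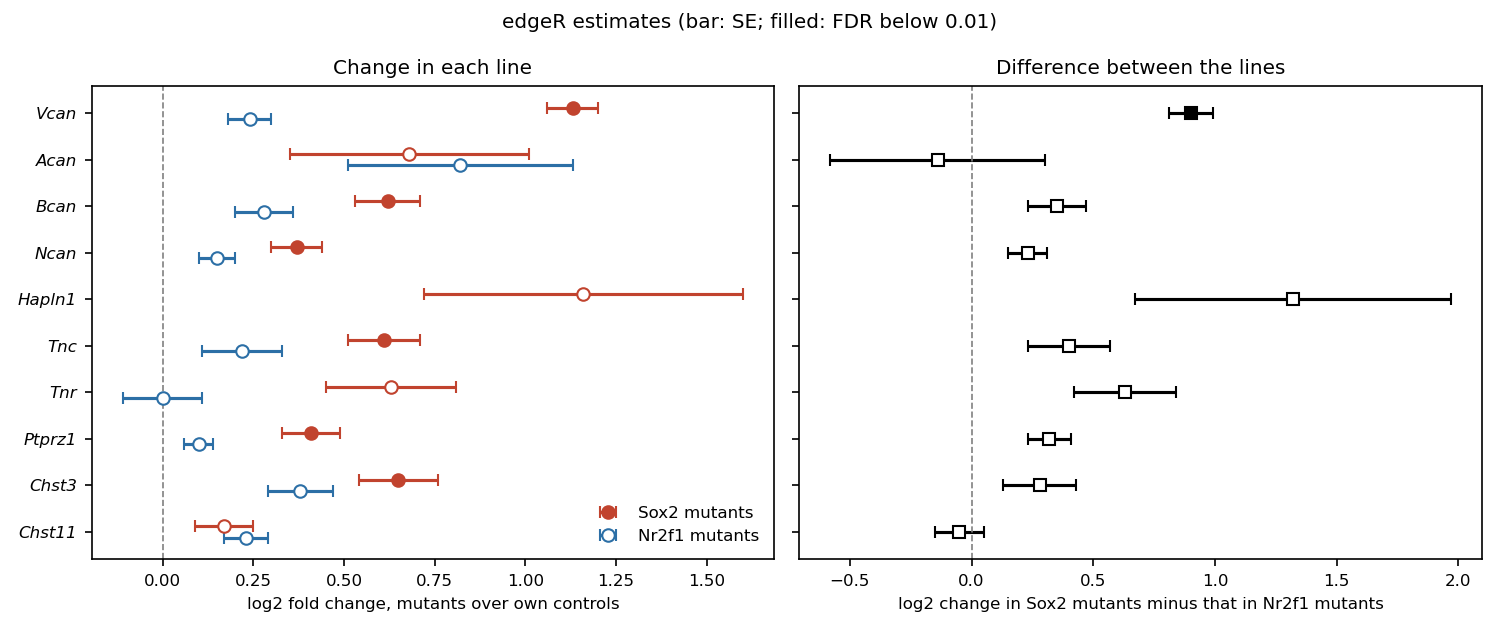
Left, log2 fold change of each gene in mutants over the controls of the same line; right, the change in *Sox2* mutants minus the change in *Nr2f1* mutants; points are edgeR estimates, bars the SE, and filled symbols have an FDR below 0.01. *Hapln1* was not tested in the *Nr2f1* line; *Vcan* is the 1 filled symbol on the right, at 0.90.

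The unequal changes altered the make-up of the lectican RNA in *Sox2* mutants, given here as a description. Per kb of transcript, *Ncan* made up 73.6% ± 1.39 of the RNA of the 4 lecticans in *Sox2* controls, *Bcan* 24.6% ± 1.46, *Vcan* 1.76% ± 0.0751 and *Acan* 0.0191% ± 0.00469. The sum of the 4 was 438 ± 10.9 CPM per kb in these controls and 601 ± 36.2 in the mutants, and 397 ± 9.17 and 450.4 ± 29.3 in controls and mutants of the *Nr2f1* line, without overlap in either line. In the mutants *Ncan* made up 69.6% ± 0.257, *Bcan* 27.6% ± 0.380, *Vcan* 2.81% ± 0.222 and *Acan* 0.0221% ± 0.00459. For *Ncan*, *Bcan* and *Vcan* the mutant shares stood apart from those of the controls, those of *Acan* did not, and neurocan remained by far the most abundant. In the *Nr2f1* line the shares of *Ncan*, *Bcan* and *Vcan* overlapped between the groups, with *Vcan* at 1.88% ± 0.0318 in controls and 1.96% ± 0.0665 in mutants. The share of *Acan* did not overlap there, at 0.0149% ± 0.00202 and 0.0231% ± 0.00361, from 16 to 45 counts per library. The share of *Chst3* in the sum of *Chst3* and *Chst11* was 29.5% ± 0.259 in *Sox2* controls and 36.8% ± 4.16 in mutants, without overlap, and 22.1% ± 1.49 and 23.9% ± 2.42 in the *Nr2f1* line, with overlap. The shares depend on the transcript lengths used.

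**Figure D3:**
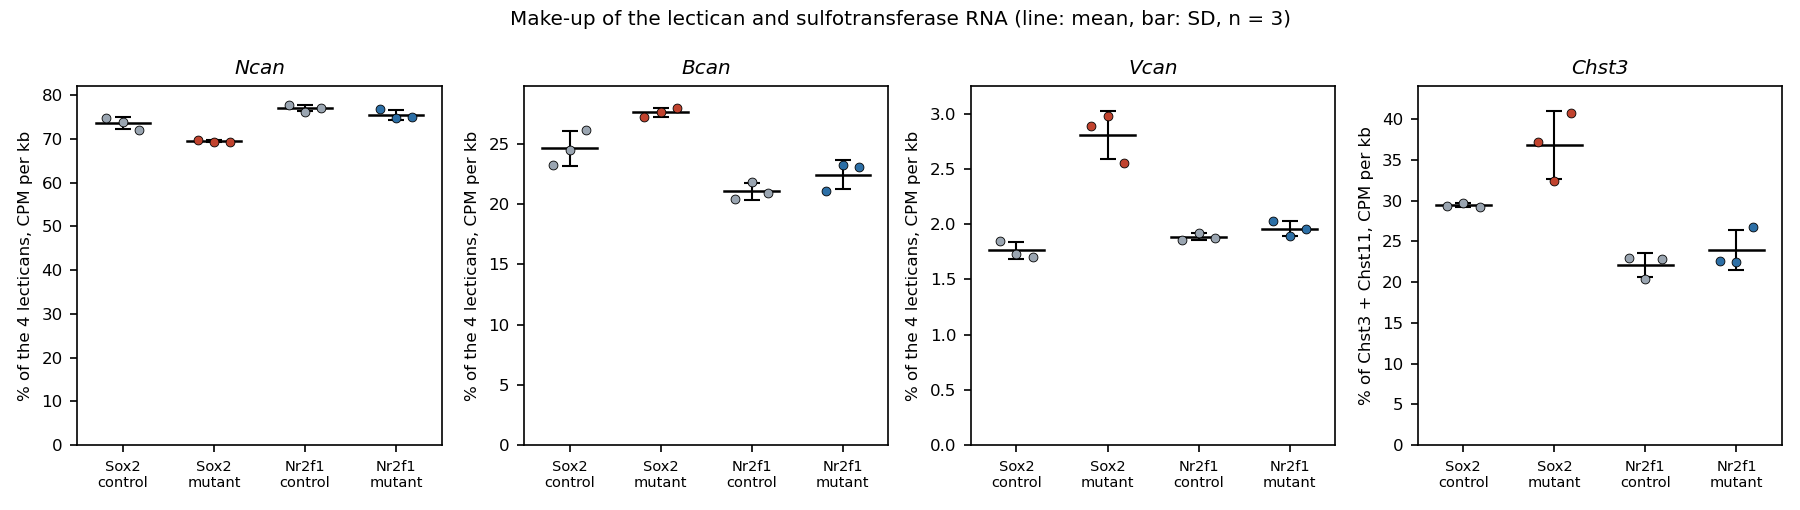
Share of *Ncan*, *Bcan* and *Vcan* in the summed RNA of the 4 lecticans, and of *Chst3* in the sum of *Chst3* and *Chst11*, in percent of CPM per kb, in each library; each axis starts at 0, horizontal lines are means and bars the SD (n = 3). In the *Sox2* mutants *Vcan* makes up 2.56 to 2.97% of the lectican RNA, against 1.71 to 1.85% in their controls.

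Another 74 genes that build, modify, bind or cut this matrix, listed with earlier results of these libraries known but not for how they moved, were read from the same fits. Of the 72 tested in each line (*Chst13* and *Tnn* were too low), 3 rose and 4 fell in *Sox2* mutants, and 2 rose and 2 fell in *Nr2f1* mutants. Over all genes 3.9% were called higher and 4.19% lower in *Sox2* mutants, and 1.22% higher and 1.32% lower in *Nr2f1* mutants. The list was not tested as a set, and its calls are given gene by gene as a description. The median log2 fold change of the 72 was 0.25 and 0.11.

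Among the enzymes that remove or add sulfate, *Arsb*, the sulfatase of the 4 position, rose from 43.1 ± 0.663 to 66.5 ± 3.26 CPM in *Sox2* mutants (log2 fold change 0.62, FDR 0.000336). *Galns*, which removes sulfate from the 6 position, rose from 9.69 ± 0.364 to 13.7 ± 0.687 CPM (0.50, FDR 0.00765). Both are lysosomal enzymes. In *Nr2f1* mutants *Arsb* was at 0.04 (FDR 0.724) and *Galns* at 0.07 (FDR 0.662) on the log2 scale, and the difference between the lines passed for *Arsb* (0.59, SE 0.08, FDR 0.000801) and not for *Galns* (0.44, FDR 0.0592). Among the 12 genes that start and extend the chains, 0 passed in *Sox2* mutants and *Xylt2*, which adds the first sugar, fell from 55.9 ± 3.83 to 40.9 ± 2.09 CPM in *Nr2f1* mutants (-0.45, FDR 0.00526).

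The proteases that cut lecticans moved in both directions in *Sox2* mutants. *Adamts4*, an aggrecanase that also cuts brevican, fell from 31.1 ± 5.48 to 12.9 ± 1.29 CPM (log2 fold change -1.27, FDR 0.000322), and *Adamts15* fell from 86.5 ± 16.5 to 36.6 ± 5.35 CPM (-1.24, FDR 0.000503). *Adamts5*, a close relative, rose from 4.37 ± 0.172 to 7.17 ± 0.416 CPM (0.71, FDR 0.00441). In *Nr2f1* mutants 0 of the 14 proteases and inhibitors passed, with *Adamts4* at -0.63 (FDR 0.0434), *Adamts5* at 0.17 (FDR 0.440) and *Adamts15* at 0.05 (FDR 0.837). The lines differed in *Adamts15* by -1.28 (SE 0.21, FDR 0.00317).

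Of the 16 receptors and ligands, *Itga9*, an integrin subunit that binds tenascin-C, fell in both lines. It went from 35.0 ± 1.84 to 17.8 ± 1.77 CPM in *Sox2* mutants (-0.98, FDR 0.000206) and from 29.7 ± 0.648 to 12.8 ± 2.74 CPM in *Nr2f1* mutants (-1.21, FDR 0.000777). *Rtn4rl1*, a Nogo receptor homolog that binds chondroitin sulfate, fell in *Sox2* mutants from 159 ± 17.1 to 95.7 ± 1.37 CPM (-0.73, FDR 0.000384) and had -0.39 (FDR 0.0405) in *Nr2f1* mutants. *Nfasc*, neurofascin, an adhesion molecule of the axon initial segment, rose in *Nr2f1* mutants from 144 ± 4.85 to 211 ± 14.8 CPM (0.55, FDR 0.000777). Among the other proteoglycan cores *Spock1*, testican-1, rose in *Nr2f1* mutants from 90.1 ± 2.11 to 127 ± 8.38 CPM (0.49, FDR 0.00118) and had a larger estimate with a larger error in *Sox2* mutants (0.83, SE 0.18, FDR 0.0131).

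Of the 10 genes of hyaluronan synthesis, turnover and receptors 0 passed in either line. *Cemip*, which takes part in hyaluronan breakdown and is named here after its values were seen, came nearest, with 3.61 ± 0.565 CPM in *Sox2* controls and 6.34 ± 0.844 in mutants (log2 fold change 0.81, SE 0.17, FDR 0.01003) and no overlap, and 0.45 (FDR 0.115) for *Nr2f1*. *Has3*, a hyaluronan synthase, had 37.5 ± 6.22 CPM in *Sox2* controls and 27.2 ± 3.11 in mutants (log2 fold change -0.46, FDR 0.0316), and in the *Nr2f1* line the fold change was -0.26 (FDR 0.176). *Has2* was at 4.36 ± 0.0980 and 5.82 ± 1.71 CPM in *Sox2* controls and mutants (FDR 0.190), and *Has1* was below 1 CPM in every group. Of the other link proteins, *Hapln4* was at 7.81 ± 0.591 CPM in *Sox2* controls and 5.97 ± 0.717 in mutants (-0.39, FDR 0.0705), and at 6.37 ± 0.0817 and 8.80 ± 0.435 in the *Nr2f1* line (0.47, FDR 0.0232). Neither change passed, but the difference between them did (-0.85, SE 0.16, FDR 0.00751). *Hapln2* (FDR 0.976 and 0.429) and *Hapln3* (FDR 0.120 and 0.305) passed in neither line.

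**Figure D4:**
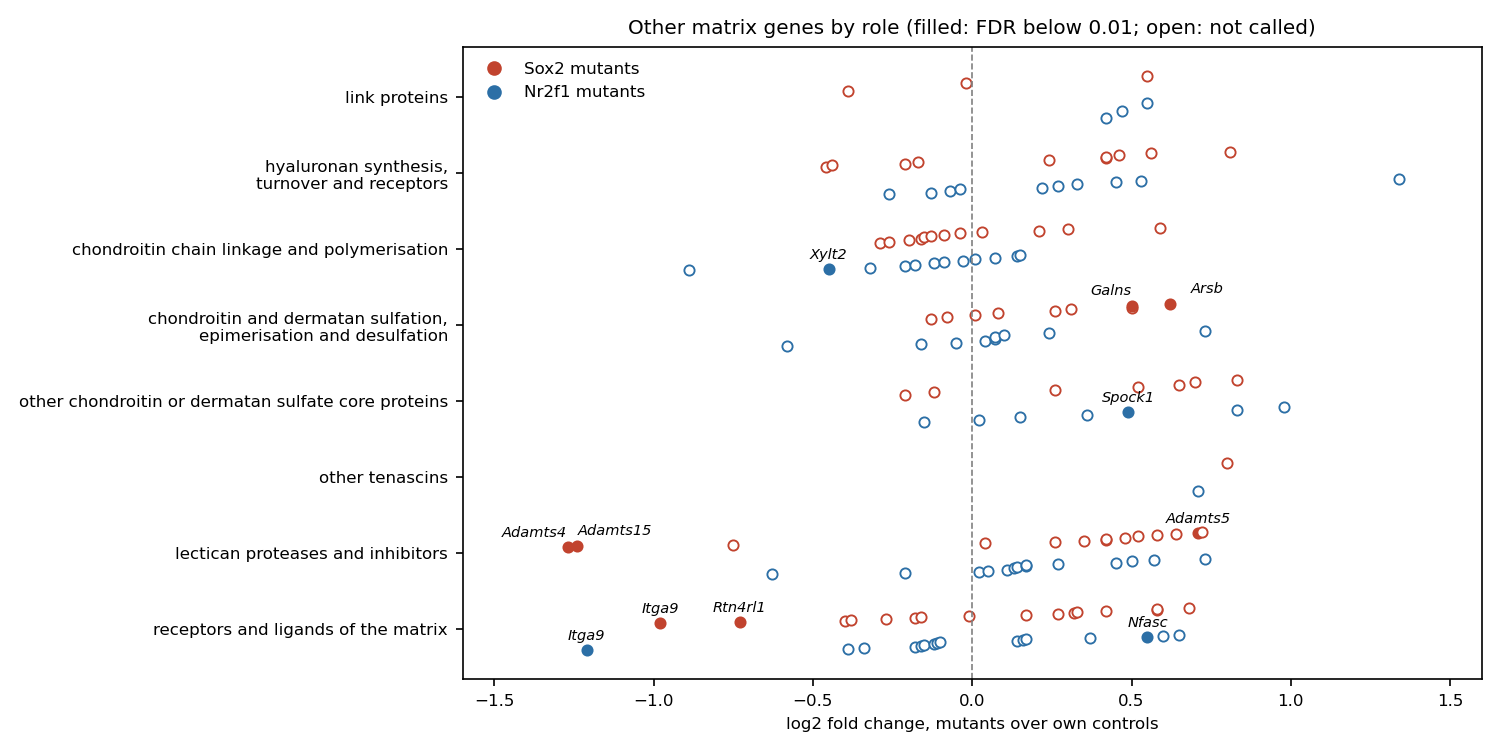
Log2 fold change, in mutants over the controls of the same line, of the 72 other matrix genes tested, arranged by role; red circles are *Sox2* mutants and blue circles *Nr2f1* mutants, filled where the FDR was below 0.01. *Itga9* is filled in both lines, at -0.98 and -1.21; the vertical offset within a role only separates the points.

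Markers of other cell types moved with the members in *Sox2* mutants. Of 10 markers of astrocytes and radial glia, which make several members, 6 rose and 0 fell. Their summed level was 1885 to 2263 CPM in controls and 2868 to 3317 CPM in mutants (1.53-fold), against 1639 to 1696 and 1815 to 1999 CPM in the *Nr2f1* line (1.15-fold, 1 of 10 rose, *Aqp4*). Of 8 microglial markers 7 rose, and their sum was 130.5 to 144 CPM in controls and 269 to 311 CPM in mutants (2.14-fold), against 107 to 122 and 132 to 163 CPM in the *Nr2f1* line (1.28-fold, 0 of 8). In both lists the groups did not overlap in either line. The list of oligodendrocyte precursors had 0 of 8 called in either line. Its sum was 560.1 to 674 CPM in *Sox2* controls and 687 to 803 CPM in mutants, again without overlap. Its defining markers in *Sox2* mutants were *Pdgfra* at a log2 fold change of 0.33 (FDR 0.0112), *Olig2* at 0.20 (FDR 0.364) and *Sox10* at 0.31 (FDR 0.0963). In the *Nr2f1* line the sum was 469 to 501 CPM in controls and 493 to 535 CPM in mutants (1.06-fold, with overlap). Meningeal and perivascular fibroblasts had 0 of 8 called in either line, with 942 to 1888 and 1442 to 3272 CPM in the *Sox2* line and 716 to 1092 and 1038 to 2409 CPM in the *Nr2f1* line. GABAergic neurons had 0 of 8 called, with 87.6 to 140.2 CPM in *Sox2* controls and 162 to 234 CPM in mutants (1.62-fold, no overlap), and 1.41-fold with overlap in the *Nr2f1* line. Dividing cells had 0 of 6 called, with 165 to 214 CPM in *Sox2* controls and 230.0 to 275 CPM in mutants (1.31-fold, no overlap), and 1.07-fold with overlap in the *Nr2f1* line. The lists of myelinating oligodendrocytes, endothelial cells, pericytes and red blood cells had ratios of mutant to control between 1.05 and 1.30 with overlapping groups in the *Sox2* line, and between 0.941 and 1.33 in the *Nr2f1* line, where only the endothelial groups did not overlap. In the list of myelinating oligodendrocytes 1 marker rose and 1 fell in each line. *Mbp* rose in both (0.80, FDR 0.00787, and 0.87, FDR 0.000185), while *Mog* had -0.33 (FDR 0.182) and -0.34 (FDR 0.305). Of 7 markers of thalamic glutamatergic neurons, 1 rose and 3 fell in *Sox2* mutants, and 1 rose and 1 fell in *Nr2f1* mutants. *Slc17a6* was among those that fell in *Sox2* mutants (-0.96, FDR 0.000336), while *Tcf7l2* had 0.12 (FDR 0.452). The summed level was 1771 to 2263 CPM in *Sox2* controls and 1807 to 1836.5 CPM in mutants (0.888 of control), with overlap. It was 1.04-fold with overlap in the *Nr2f1* line. Of 6 markers of neurons of any kind, 1 fell in *Sox2* mutants and 0 passed in *Nr2f1* mutants, where the summed level was lower in all 3 mutants than in all controls (0.938 of control). In the *Sox2* line the sum was 0.921 of control, with overlap. None of the defining markers was at 0 in any library. The part of cell composition in the levels of the members was not tested.

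**Figure D5:**
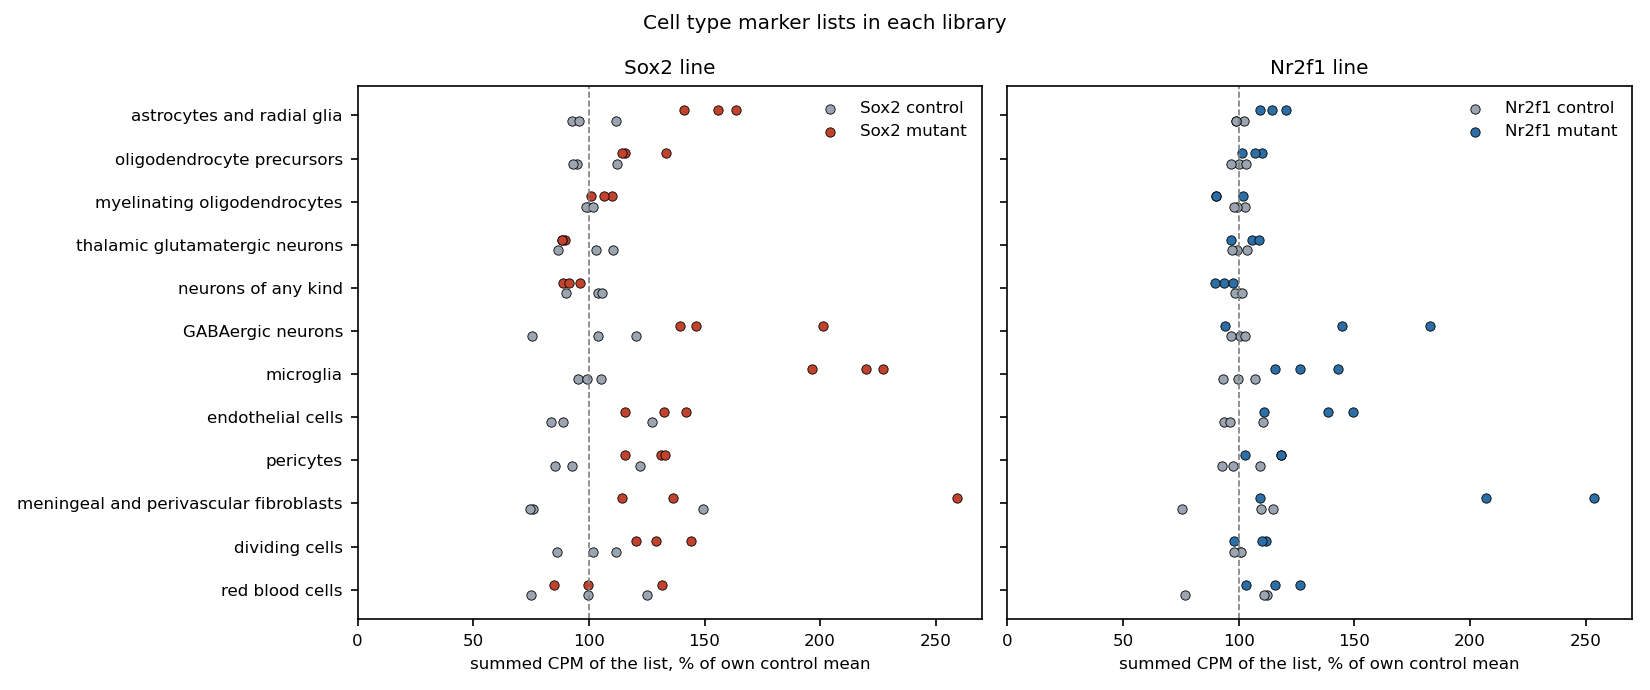
Summed CPM of each of the 12 cell type marker lists in each library, in percent of the mean of the controls of the same line (dashed line at 100); gray points are controls, colored points mutants of the *Sox2* line (left) and the *Nr2f1* line (right). The astrocyte and microglial lists of the 3 *Sox2* mutants stand to the right of all their controls.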

How the data were processed

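RNA-seq was measured in 12 libraries of 4 groups of 3. Per the study's methods, the authors aligned reads with STAR to the mouse RefSeq transcriptome and deposited expected counts per gene estimated by RSEM, without normalization, in 1 table per line; the submitters' processing notes name mm10. Multi-mapping reads and splice forms were resolved before deposit, and no step of that was repeated. Of the values 7.77% were not whole, and all were rounded. Columns name their group and were assigned by it.

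Counts were tested with edgeR 4.0.16 (R 4.3.3), glmQLFit and glmQLFTest with default parameters, after filterByExpr (minimum count 10, minimum total 15) and TMM normalization, on all genes of a table. FDR is the Benjamini-Hochberg adjusted p-value, called below 0.01, the threshold of the study. At this threshold 608 genes were called higher and 653 lower in *Sox2* mutants, and 190 higher and 206 lower in *Nr2f1* mutants. These are fewer than the study reported for either line, and the reason was not tested. CPM are after TMM, within each line. The interaction was fitted over 12 libraries. Groups of 3 allow no exact permutation p below 0.1. The code of the tests was run on simulated counts with known changes and the same dispersion for every gene. That run does not show how the tests behave with the spread of these libraries.

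The members, the gene lists, the tests and the alternatives were chosen with earlier results of these data known. Genes named in full are the 10 members, and other matrix genes are named if called in either line, or as link proteins, hyaluronan synthases or *Ptprz1* ligands. The markers, 12 lists from general knowledge, are named only if defining. *Cemip2* was found as *Tmem2*. Alternatives were no filter, a minimum of 10 counts in each library, scaling by the upper quartile or by DESeq2 size factors, DESeq2 1.42.0, legacy=FALSE, FDR below 0.05, 1 fit over 12 libraries, a replicate block, and leaving out each library. Positions and promoter windows are from RefSeq (GRCm38.p6), strands and transcript lengths from GENCODE M21 (GRCm38).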

Additional observations from a re-analysis of the deposited data

Results flagged for a closer look

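The change differed between the 2 mutants, by the edgeR test of the interaction at FDR below 0.01, for *Vcan* among the members and for *Arsb*, *Hapln4* and *Adamts15* among the other matrix genes. Each value is a difference of log2 fold changes, *Sox2* less *Nr2f1*. It was 0.90 for *Vcan*, whose *Sox2* mutants were at 199 to 228 CPM and whose 9 other libraries were at or below 117 CPM. It was 0.59 for *Arsb*, which rose in *Sox2* mutants. It was -0.85 for *Hapln4*, with a lower mean in *Sox2* mutants and a higher one in *Nr2f1* mutants, neither past the threshold. It was -1.28 for *Adamts15*, which fell in *Sox2* mutants. Groups of 3 libraries were too small to be examined for single outlying libraries.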

How the results depend on the processing

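Of the members, *Vcan* was called in *Sox2* mutants in all 15 alternatives and differed between the mutants in all 19. Members called in *Sox2* mutants were 6, and 1 to 6 without 1 library each. They were 7 with DESeq2, with one fit over all 12 libraries and at FDR below 0.05, where *Tnr* was added. With legacy=FALSE they were 5, without *Ncan* (FDR 0.0141). Members called in *Nr2f1* mutants were 0, but 1 with DESeq2 (*Chst3*) and 2 at FDR below 0.05 (*Vcan* and *Chst3*). Other matrix genes called in *Sox2* mutants were 7, but 18 with DESeq2, 12 with one fit over all 12 libraries, 18 at FDR below 0.05 and 5 to 11 without 1 library each, the highest without CTRL_3. Those called in *Nr2f1* mutants were 4, but 7 without the filter on low counts, 11 with DESeq2, 14 at FDR below 0.05 and 3 to 11 without 1 library each, the highest without MUT_B. Other matrix genes differing between the mutants were 3, and 1 to 3 without 1 library each (1 without CTRL_2 of the *Sox2* line and without CTRL_D, CTRL_E or MUT_A of the *Nr2f1* line, and without its MUT_B). Estimates near 0 changed sign. That of *Tnr* in *Nr2f1* mutants was -0.01 with DESeq2 size factors and with DESeq2, and -0.03 to 0.05 without 1 library each, and the difference for *Acan* was -0.33 to 0.07 without 1 library each. The cause of these shifts was not tested, except that fits without a library rest on fewer samples.

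Columns of the *Sox2* line share the numbers 1 and 3 between controls and mutants, which no source ties to a litter or a day. Deviations from the group means correlated at 0.24 for both of these pairs (13843 genes), and at 0.30 between CTRL_2 and MUT_1. With the number as a replicate block, 4 members (*Vcan*, *Bcan*, *Chst3* and *Tnr*) and 19 other matrix genes were called. CTRL_2 and MUT_4 have no partner of the same number, so that fit compares mutants with controls only within the numbers 1 and 3. Little is left in it to estimate the spread, and its counts are not on a par with those of the other fits. In the *Nr2f1* line no paired analysis was possible because only 1 letter is shared. *Acan* and *Hapln1* had at most 56 and 35 counts per library, the fewest of the members, and how much of their spread is counting error was not tested.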
